A study of Caenorhabditis elegans with 2 samples.

Results

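The genes described here are named for translation initiation and elongation factors of the nematode Caenorhabditis elegans. The measurement is the presence of the zinc finger protein ZTF-26 at their promoters. Members were taken by name: protein-coding genes of the Ensembl WBcel235 annotation whose names start with eif-, eef-, iff-, ife- or ifg-. This gave 39 of 19973 protein-coding genes, of which 31 are named for initiation (eif-, ife- and ifg-), 6 for elongation (eef-) and 2 for eIF5A (iff-). The worms were of strain OP565, which carries the mutation unc-119(tm4063) III and the transgene wgIs565, and expressed ZTF-26 with a GFP-FLAG tag at its C terminus. Whole animals of mixed sex were harvested as young adults, 56 hours after L1 larvae that had been synchronized by bleaching and starvation. Chromatin was immunoprecipitated and sequenced (ChIP-seq) in 2 biological replicates, numbers 3 and 4, which form 1 group. The labels differ on the antibody: their description gives one against GFP, and their antibody field gives ztf-26, so whether the signal is of the tagged protein alone cannot be told apart here. Whole worms were used, so the tissue in which a peak arose cannot be told apart, and a control library was not analysed here.

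Translation starts when initiation factors load the small ribosomal subunit with the initiator tRNA and bring it to the capped end of an mRNA. eIF2 carries the initiator tRNA, eIF2B recharges eIF2 with GTP, eIF3 is a large scaffold on the small subunit, eIF4E binds the cap, and eIF4G bridges eIF4E to the rest of the complex. In elongation, eEF1A brings each aminoacyl-tRNA to the ribosome, and the exchange factor eEF1B returns eEF1A to its GTP form. The translocase eEF2 moves the ribosome along by 1 codon. eIF5A was named for initiation but helps elongating ribosomes through difficult stretches, so its 2 genes were kept apart. Elongation factors are among the most abundant proteins of growing animal cells.

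ZTF-26 peaks were found at most elongation factor genes and at few initiation factor genes. The deposited optimal list, made by the authors with a threshold on reproducibility, holds 1929 peaks, of which 1918 overlapped a candidate in both replicates. A gene was counted when the summit of an optimal peak lay within 1000 bp upstream to 500 bp downstream of a transcript 5' end. By this count 9 of 39 translation factor genes (23.1%) had an optimal summit, against 5.69% of all protein-coding genes (1136 of 19973). The 9 were 3 of 31 initiation genes (9.68%), 5 of 6 elongation genes (83.3%) and 1 of 2 eIF5A genes. The 9 genes had 9 distinct peaks. The share of initiation genes lay closer to that of all genes than the share of elongation genes did. Among optimal peaks at or above the list's median signal of 131, 7 members had a summit (5 elongation, 1 initiation and 1 eIF5A gene), against 3.13% of all protein-coding genes. The difference between initiation and elongation genes is a count over named genes in 1 group of worms and was not tested.

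Signal is the authors' value for each peak. The pooled list of candidates, made from both replicates together, held 28233 peaks with a median signal of 33.4, and its 1929 strongest were the optimal list, with signals from 90.2 to 1104. Of 39 translation factor genes 29 (74.4%) had a candidate of any rank in their window, against 40.1% of all protein-coding genes, and their strongest signals had a median of 58.3, against 39.4 over the 8015 protein-coding genes with a candidate. The median was 43.2 for the 22 initiation genes and 182 for the 5 elongation genes with a candidate. The lists of single replicates held 30000 peaks in replicate 3, with a summit at 30 members and 41.8% of all protein-coding genes, and 20373 in replicate 4, with a summit at 27 members and 32.6% of all genes. Signal was higher in replicate 3, with a median ratio to replicate 4 of 1.73 over 1918 optimal peaks that overlapped a candidate in both, and the spread of this ratio (1 SD on the log2 scale of 0.48) was 1.40-fold. The files give no read counts, so depth is unknown.

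**Figure D1:**
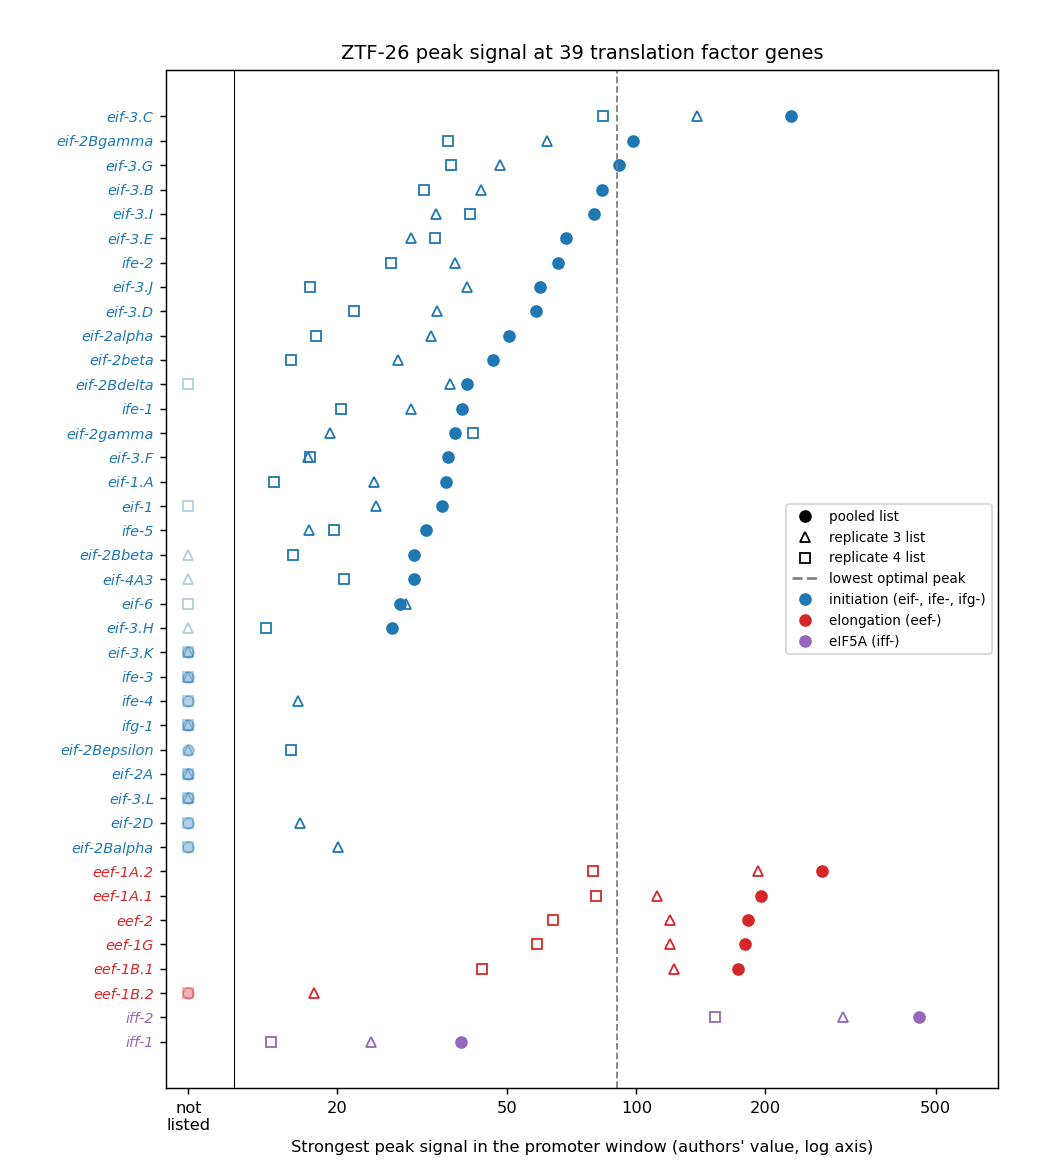
Strongest peak signal in the promoter window of each of the 39 genes (log axis), in the pooled list (filled circles), replicate 3 (triangles) and replicate 4 (squares), with genes that had no summit in a list at the left. The 5 elongation genes with a peak lie between 172 and 272 in the pooled list, right of the dashed line at the lowest optimal signal of 90.2, and 28 of 31 initiation genes lie left of it or are not listed.

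Among the initiation complexes with several genes, the eIF3 scaffold had the highest median signal. Of 11 eIF3 subunit genes, eif-3.C and eif-3.G had an optimal summit, 9 had a candidate of any rank, and their median pooled signal was 68.7. The peak of eif-3.C, which encodes a core subunit, had a pooled signal of 230, with 138.5 in replicate 3 and 83.5 in replicate 4. It ranked 245 among pooled candidates, 297 among those of replicate 3 and 260 among those of replicate 4, and its summit lay 241 bp upstream of the gene. The peak of eif-3.G, an RNA-binding subunit, had a pooled signal of 91.1, with 48.1 in replicate 3 and 37.0 in replicate 4, with its summit 360 bp upstream. It was close to the end of the optimal list, at pooled rank 1899, and with ranks of 2880 in replicate 3 and 2077 in replicate 4 it was not among the 1929 strongest of either replicate alone.

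Of the other eIF3 genes, eif-3.B and eif-3.I lay just below the optimal list, at pooled ranks 2265 and 2457. The rest lay lower or were not listed. The peak of eif-3.B had a pooled signal of 82.9, with 43.3 in replicate 3 and 31.9 in replicate 4. That of eif-3.I had 79.6, with 34.0 in replicate 3 and 40.9 in replicate 4. That of eif-3.E had 68.7, with 29.7 in replicate 3 and 33.9 in replicate 4. For eif-3.I and eif-3.E replicate 4 gave the higher value, where most optimal peaks were higher in replicate 3. The pooled signal was 59.6 at eif-3.J, 58.3 at eif-3.D, 36.3 at eif-3.F and 26.9 at eif-3.H. No list held a summit at eif-3.K or eif-3.L.

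The remaining initiation genes had 1 optimal summit. It belonged to eif-2Bgamma, a subunit of the exchange factor eIF2B, with a pooled signal of 98.3, 62.0 in replicate 3 and 36.4 in replicate 4. Its summit was the farthest from a 5' end of the 9, 560 bp upstream and inside an intron of the neighbouring gene C15F1.5. In a window from 500 bp upstream to 250 bp downstream, the gene had no optimal summit. The summit also lay in the windows of sup-39 and mir-1831, both annotated as snRNA genes. It ranked 1768 in replicate 3 and 2160 in replicate 4, so it was among the 1929 strongest of replicate 3 alone and not of replicate 4 alone. The summit of the overlapping peak in replicate 3 lay 119 bp from the pooled one, and that in replicate 4 lay 4 bp from it. The other eIF2B genes were weak or unlisted, with pooled signals of 40.2 at eif-2Bdelta and 30.3 at eif-2Bbeta, a candidate in replicate 3 alone at eif-2Balpha (20.1) and in replicate 4 alone at eif-2Bepsilon (15.7).

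The 3 genes of eIF2 had pooled signals of 50.4 (eif-2alpha), 46.2 (eif-2beta) and 37.8 (eif-2gamma), all below the optimal list. At eif-2gamma the strongest candidate was 19.2 in replicate 3, 680 bp upstream, and 41.7 in replicate 4, 957 bp upstream, so their summits differed in place. With rank 1568 in replicate 4 it was among the 1929 strongest of that replicate, as was eif-3.I at rank 1638. Of the 5 genes of the cap-binding protein eIF4E 3 (60%) had a pooled candidate, against 40.1% of all protein-coding genes. At ife-4 a candidate of 16.2 was listed in replicate 3 alone, and at ife-3 none was listed. The 3 pooled signals were 65.5 (ife-2), 39.2 (ife-1) and 32.4 (ife-5). Of these, ife-2 had 37.8 in replicate 3 and 26.8 in replicate 4, and ife-1 had 29.7 in replicate 3 and 20.5 in replicate 4. At ife-5 the values were 17.2 in replicate 3, at chrII:12283384, and 19.7 in replicate 4, at chrII:12280141, so they came from different sites. The replicate summits also differed in place at ife-2 and ife-1. By strongest window signal, ife-2 was the highest in both replicates, although it exceeded ife-1 by less than the 1.40-fold spread in each. That spread was taken over optimal peaks, and neither gene has one. The coding sequences of ife-1 and ife-5 were 74.4% identical, the most of any pair in this family. The single eIF4G gene, ifg-1, which encodes the scaffold of the cap complex, had no summit in any list. Pooled signals were 36.0 at eif-1.A and 35.3 at eif-1, whose products help choose the start codon, 30.2 at eif-4A3 and 28.0 at eif-6. At eif-2D a candidate of 16.4 was listed in replicate 3 alone, and at eif-2A none was listed. In all, 5 of 31 initiation genes had no summit in any of the 3 lists, against 9625 of 19973 protein-coding genes. A further 4 had one in a single replicate but not in the pooled list. Of all protein-coding genes, 2333 had one in a replicate but not in the pooled list.

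Where 5.69% of all protein-coding genes had an optimal summit, 4 of the 5 eEF1 genes had one, as did eef-2. Their pooled signals spanned 172 to 272, a range that also holds the initiation gene eif-3.C (230). The lowest of these 5 had a signal of 112 in replicate 3 and 43.6 in replicate 4. In each replicate 1 initiation gene, eif-3.C, exceeded that value, and the second highest initiation gene had 62.0 in replicate 3 and 41.7 in replicate 4. So these 5 stood above the initiation genes other than eif-3.C in both replicates, although in replicate 4 the lowest of them and the second highest initiation gene differed by less than the 1.40-fold spread. The peaks of all 5 were also among the 1929 strongest peaks of each replicate taken alone, which held a summit at 5.75% of protein-coding genes for replicate 3 and 5.45% for replicate 4.

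The strongest elongation peak was at eef-1A.2, which encodes eEF1A. Its pooled signal was 272, with 193 in replicate 3 and 79.1 in replicate 4. The paralogue eef-1A.1 had 195, with 112 in replicate 3 and 80.3 in replicate 4. Replicate 3 was higher for eef-1A.2 and replicate 4 gave nearly equal values, so the order of the pair was not stable between replicates. The ratio of eef-1A.1 to eef-1A.2 was 0.719 by pooled signal, 0.58 in replicate 3 and 1.02 in replicate 4. The coding sequences of the pair, 1389 bases each, were 94% identical. Both summits lay upstream of them, at 393 bp (eef-1A.2) and 360 bp (eef-1A.1) from the annotated 5' end. Every stretch of 30 bases within 50 bp on either side of each of the 9 summits occurred once in the genome, so these windows have no exact copy elsewhere at that length. The rest of each peak was not examined in this way, and whether reads of 1 paralogue were placed at the other was not tested.

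The sequences around 4 of these summits are given because they share short words across genes. Each line covers 50 bp on either side of the pooled summit and runs 5′ to 3′ on the strand of the gene, from the WBcel235 (ce11) genome of RefSeq. In the eef-1A pair, at chrX:7823211-7823311 (plus strand) and chrIII:6972022-6972122 (minus strand), capitals mark GAGAGA and its overlapping repeats. In iff-2, at chrII:8561385-8561485 (minus strand), and eef-1G, at chrV:10965619-10965718 (plus strand), they mark CTGCGTAG. The eef-1G line stops at the base before the gene.
eef-1A.2: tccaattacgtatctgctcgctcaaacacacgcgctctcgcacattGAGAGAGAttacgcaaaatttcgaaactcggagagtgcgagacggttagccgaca
eef-1A.1: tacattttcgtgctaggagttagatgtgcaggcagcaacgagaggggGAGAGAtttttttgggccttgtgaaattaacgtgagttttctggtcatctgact
iff-2: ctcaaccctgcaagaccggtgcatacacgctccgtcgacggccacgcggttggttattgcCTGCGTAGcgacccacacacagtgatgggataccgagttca
eef-1G: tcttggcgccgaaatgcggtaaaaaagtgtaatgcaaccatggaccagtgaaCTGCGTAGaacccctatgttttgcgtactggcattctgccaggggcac

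Both eef-1A windows held GAGAGA at the summit itself, from 4 bp before to 3 bp after it in eef-1A.2 and from 3 bp before to 2 bp after it in eef-1A.1. In eef-1A.2 the run also contains GAGAGAG, the reverse complement of CTCTCTC. The word GAGAGA, read on both strands, is frequent. It was found in 2 of the 9 member windows, in 21.8% of the windows of the same length around all 1929 optimal summits, in 9.37% of those around 26304 lower-ranked candidates, and in 8.86% of windows of that length just before each protein-coding gene. CTGCGTAG is rarer. It lay 10 to 17 bp after the summit in iff-2 and 2 to 9 bp after it in eef-1G, and was found in 15 of 1929 optimal windows (0.778%), 30 of 26304 lower-ranked windows (0.114%) and 13 of 19973 promoters (0.0651%). Both words were picked after the member windows had been read, so their presence there is a description and not a result. Of 6 words already known to be frequent at summits of these data, read on both strands, CTCTCTC was found at eef-1A.2 and in 9.90% of all optimal windows. None of the 9 windows held ACGCAGA (7.88% of all optimal windows), CTGCGTC (7.98%), which shares its first bases with CTGCGTAG, GAGACGC (8.29%), CACGTG (8.24%) or CGCCAGC (3.58%). The 9 windows had a median of 50.5% G and C, against 46.5% over all optimal summits.

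The other subunits of eEF1 had peaks closer to the gene. At eef-1G, for the gamma subunit, the pooled signal was 179, with 120 in replicate 3 and 58.6 in replicate 4, with the summit 50 bp upstream. At eef-1B.1, for a subunit of the exchange factor, it was 172, with 122 in replicate 3 and 43.6 in replicate 4, with the summit 31 bp upstream and within the annotated ncRNA gene F54H12.9. This was the widest gap between replicates among the 9 peaks, a ratio of 2.80. Its paralogue by name, eef-1B.2, was the 1 elongation gene without a peak: no summit was listed in the pooled list or in replicate 4, and replicate 3 listed a candidate of 17.6. Replicate 3 thus gave eef-1B.1 a signal 6.92 times that of eef-1B.2, whose value was near the lowest signal of that list, 14.2. The annotated coding sequences of the pair differ in length (639 and 1320 bases).

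At eef-2, which encodes the translocase, the pooled signal was 182, with 120 in replicate 3 and 64.0 in replicate 4. Its summit, 11 bp upstream, was the closest to a 5' end of the 9 and lay at the same base in both replicates. On ce11 this peak spanned chrI:9163300-9163739, and that of eif-3.C, on the same chromosome, chrI:9979683-9980122. The other peaks lay at chrII:8561309-8561564 (iff-2), chrII:6967988-6968427 (eif-2Bgamma), chrII:8442187-8442626 (eif-3.G), chrIII:6971997-6972140 (eef-1A.1), chrIII:7973197-7973636 (eef-1B.1), chrV:10965449-10965888 (eef-1G) and chrX:7823193-7823343 (eef-1A.2).

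Among the 39 genes of the name rule, the strongest peak was at iff-2. The eIF5A pair had the widest ratio of the pairs with a pooled candidate at both genes. The pooled signal at iff-2 was 458 (rank 44), with 303 in replicate 3 (rank 44) and 153 in replicate 4 (rank 54). At iff-1, which in worms is known for its role in the germ line, it was 38.9 (rank 10343), with 24.1 in replicate 3 (rank 12335) and 14.1 in replicate 4 (rank 18661). Thus iff-2 was 11.8-fold higher by pooled signal, 12.6-fold in replicate 3 and 10.9-fold in replicate 4, beyond the 1.40-fold spread. That spread was taken over optimal peaks, and iff-1 has none. The iff-1 value in replicate 4 was near the lowest signal of that list, 13.4. The coding sequences of iff-2 and iff-1 were 65% identical. The summit of iff-2 lay 68 bp upstream and that of iff-1 918 bp upstream, past the start of its head-to-head neighbour cdk-1, which lies 278 bp away. By strongest pooled signal, iff-2 was number 31 of all 19973 protein-coding genes, eef-1A.2 number 113, eif-3.C 170 and eef-1A.1 245, while eef-2 was number 294, eef-1G 309 and eef-1B.1 343.

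**Figure D2:**
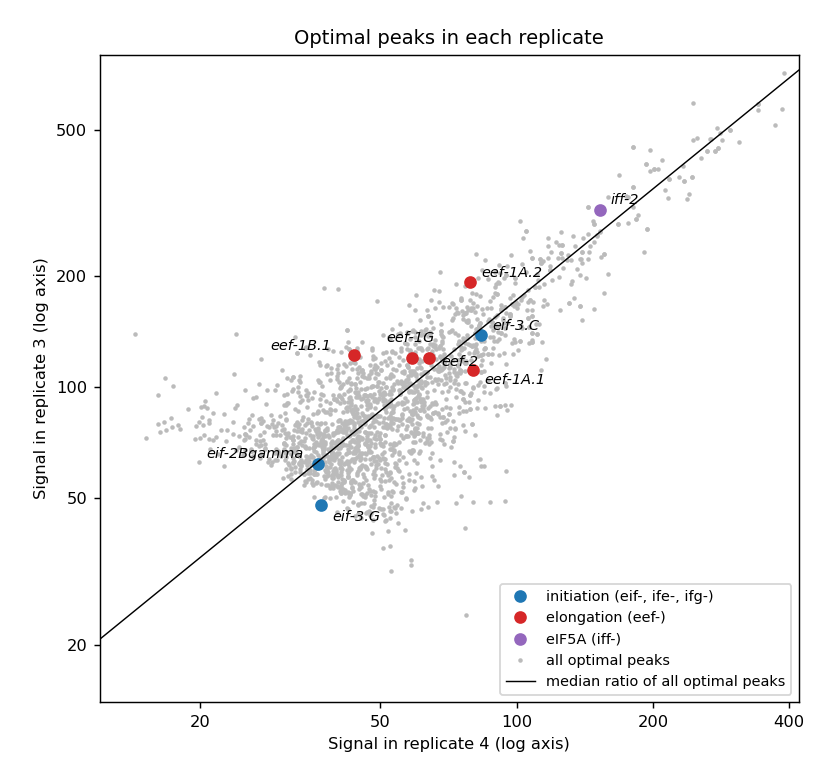
Signal of each optimal peak in replicate 4 (x axis) and replicate 3 (y axis), both on log axes, with the 9 peaks at translation factor genes coloured by role and named, and all optimal peaks in grey. The line is the median ratio of 1.73, and the 9 peaks lie on both sides of it, with ratios from 1.30 (eif-3.G) to 2.80 (eef-1B.1).

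The order of the 9 peaks was partly shared by the replicates. Of their 36 pairs, 27 were in the same order in both. Going down the pooled order, iff-2 exceeded the next gene, eef-1A.2, by 1.57-fold in replicate 3 and 1.93-fold in replicate 4, beyond the spread between replicates. No other step between neighbours exceeded 1.40-fold in both. The step from eef-1B.1 down to eif-2Bgamma, the first below the elongation genes, was 1.97-fold in replicate 3 and 1.20-fold in replicate 4. Across the 23 translation factor genes with a summit in both replicates, the strongest window signals gave a Spearman's rho of 0.80, against 0.698 over 4924 protein-coding genes. These are correlations across genes, which share libraries and are not independent replicates.

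The 9 summits were all upstream of the annotated 5' end, as were 86.1% of those at all genes with an optimal summit. Their distances fell into 2 ranges, 11 to 68 bp for eef-2, eef-1B.1, eef-1G and iff-2, and 241 to 560 bp for eif-3.C, eef-1A.1, eif-3.G, eef-1A.2 and eif-2Bgamma. The median was 241 bp, against 280 bp over all 1136 genes. Many worm mRNAs receive a spliced leader, so an annotated 5' end can be a splice site and not the start of transcription.

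**Figure D3:**
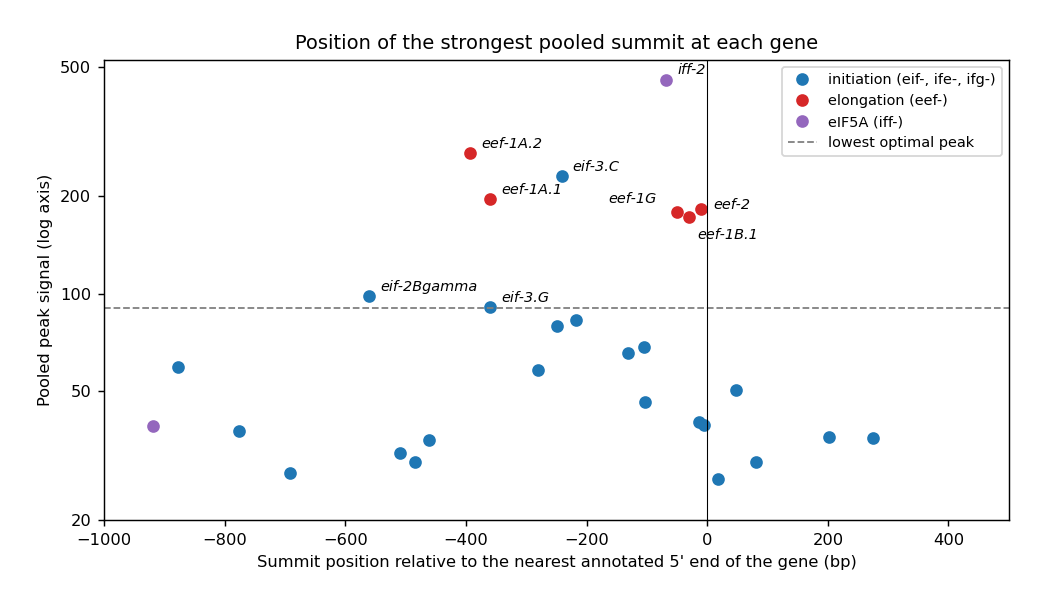
Position of the strongest pooled summit relative to the nearest annotated 5' end (x axis, bp, negative upstream) against its signal (y axis, log scale) for the 29 genes with a candidate, coloured by role. The 9 optimal peaks, above the dashed line at 90.2, lie between 560 and 11 bp upstream, while weaker summits range from 918 bp upstream to 275 bp downstream.

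Several of these promoters were shared with a gene on the opposite strand. Of the 39 genes 20 (51.3%) had their nearest upstream protein-coding neighbour head to head within 1000 bp, against 21.3% of all protein-coding genes, and 5 of these 20 had an optimal summit, against 9.11% of all genes so placed. The 5 were eef-2, eef-1G, eef-1B.1, eef-1A.1 and iff-2, and each summit was also in the window of the neighbour. This is 5 of 9 summits in the window of another protein-coding gene, against 40.8% over all genes with an optimal summit. The neighbours were clsp-1 (claspin), ctf-4 (a protein of the replication fork), aco-2 (aconitase), rfc-4 (a subunit of the clamp loader) and F54C9.14. For eef-1A.1 the summit was nearer to the neighbour, 181 bp upstream of rfc-4 against 360 bp upstream of eef-1A.1, and it lay within the annotated miRNA gene cel-mir-5549. For the other 4 it was nearer to the translation factor gene: 254 bp from clsp-1, 130 bp from ctf-4, 300 bp from aco-2 and 867 bp from F54C9.14. Noncoding genes shared summits too. The iff-2 summit was also in the window of the snoRNA gene F54C9.12, and the eef-1A.2 summit in that of the ncRNA gene R03G5.8. Which of the genes sharing a peak it acts on was not tested. Among genes with a same-strand neighbour within 1000 bp upstream, 3 of 13 members (eif-3.C, eif-3.G and eif-2Bgamma) and 4.71% of all genes had an optimal summit, and with no neighbour within that distance it was 1 of 6 members (eef-1A.2) and 4.80% of all genes.

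Other lists of the translation machinery also differed in their share of genes with a peak. Of 82 cytosolic ribosomal protein genes 33 (40.2%) had an optimal summit, against 5.69% of all protein-coding genes. Their median pooled signal was 78.1 over the 74 with a candidate, against 39.4 over all genes with one, and the highest was 1104 at rpl-3. Of 32 aminoacyl-tRNA synthetase genes 1 (3.12%) had an optimal summit, against 5.69% of all genes. It was ears-2 (signal 139), and that summit was also in the window of uncp-18. A share that rests on 1 gene cannot show a shortfall. The pooled list, by contrast, had summits at 23 of these 32 genes (71.9%), against 40.1% of all protein-coding genes. Their median pooled signal was 47.9, against 39.4 over all genes with a candidate. Among 3 factor genes that the name rule leaves out, drr-2, which encodes an eIF4H-like protein, had an optimal summit of 729 in a window it shares with set-16. The eIF4A gene inf-1 had 65.1 and egl-45, the gene of eIF3 subunit A, 24.1, both below the optimal list. Where 5.69% of all genes had an optimal summit, none of 3 termination and recycling genes had one, with pooled signals of 43.8 at erfa-1, 33.5 at abce-1 and 25.0 at erfa-3, and none of 4 mitochondrial elongation genes had one, with 54.1 at tufm-2 the highest.

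Of 4 genes for cap and poly(A) binding 1 had an optimal summit, and of 11 genes that control translation 2 did (18.2%), against 5.69% of all protein-coding genes. The first was pab-2, with a pooled signal of 198, 143 in replicate 3 and 62.7 in replicate 4. Its paralogue pab-1 had 37.2, with 28.4 in replicate 3 and 14.6 in replicate 4. The 2 control genes were ifet-1, for an eIF4E-binding protein (signal 492, in a window shared with the ribosomal protein gene rps-1), and rheb-1, for a GTPase that activates TOR (signal 143, shared with spk-1). The TOR kinase gene let-363 and the S6 kinase gene rsks-1 had no summit in any list. The eIF2 kinase gene pek-1 came just below the optimal list, with a pooled signal of 85.8, 39.2 in replicate 3 and 47.2 in replicate 4. Counts over such short lists describe these genes and were not tested.

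**Figure D4:**
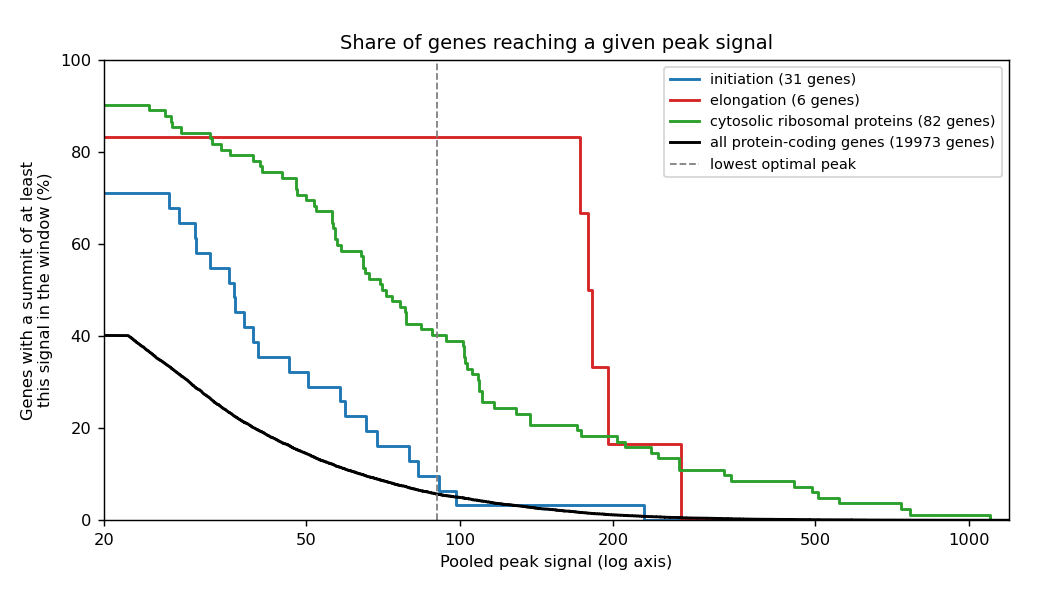
Share of genes (y axis, percent of the whole list, genes without a candidate included) whose strongest pooled summit reached at least the signal on the x axis (log scale). At the dashed line, the lowest optimal signal of 90.2, the share is 9.68% for initiation genes, 83.3% for elongation genes, 40.2% for cytosolic ribosomal protein genes and 5.69% for all protein-coding genes.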

How the data were processed

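Peaks on the build ce11 were used, since the annotation was Ensembl release 115 of WBcel235, the same assembly. Per the labels' file notes, the authors derived peaks with background from the alignments of each replicate and of both together, with a further file that also went into control-normalized tracks. The optimal list came from these 3 lists by an irreproducible discovery rate (IDR) threshold. Aligner, peak caller and threshold are not given in the sources used here. Lists on ce10 were not used. The deposited signal value of each peak has no stated scale and was used to rank and describe peaks. The deposited −log10 q-value was 3.63 for every optimal peak and was not used.

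Each gene took the strongest summit in the window around any of its transcript 5' ends, on the deposited lists. Replicate signals at a pooled peak came from the strongest replicate peak overlapping it by at least 1 bp. Genes, chromosomes and coordinates are 1-based on ce11. Coding sequences were aligned globally with Biopython 1.88, and tables were made with pandas 2.3.3 in Python 3.11.15. The window assignment was tested on simulated data. No p-value was computed: there is 1 group, and a count over chosen genes has no replicate. Members, lists, pairs and the 6 words were chosen with earlier results of these data known. Genes named are all members, the pairs, and up to 4 per related list with the highest signal, with lower ones named for their role after their values were seen. Of the names in the related lists iftb-1, ppp-1 and gfm-2 were not found as such. Alternatives were other windows, 5' ends, overlap by interval, stricter and looser lists, and each replicate alone.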

Additional observations from a re-analysis of the deposited data

How the results depend on the processing

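The count of elongation genes with an optimal summit was 5 under every alternative run, apart from counting the eIF5A genes with them, which gave 6. The count of 9 for all members ran from 7 to 11 under the other windows and lists, apart from the list of all pooled candidates, where 29 members had a summit, 22 of them initiation genes. That list holds candidates of any rank, and 40.1% of all genes had one. Apart from that list, the share of all genes with a summit ran from 3.13% to 7.62%. The 3 initiation genes became 5 with a window reaching 2000 bp upstream, which added eif-6 and ife-3. In that window 7.62% of all genes had an optimal summit, against 5.69% in the main window. Among optimal peaks at or above the median signal, where 3.13% of all genes had a summit, 1 initiation gene was left, eif-3.C. With each replicate alone the members with a summit numbered 8 to 9 and the initiation genes 2 to 3, but the genes differed. The share of all genes was 5.75% for replicate 3 alone and 5.45% for replicate 4 alone. Without replicate 3, eif-2gamma and eif-3.I gained a summit and eif-2Bgamma and eif-3.G lost theirs, and without replicate 4, eif-3.G lost its own. The median signal was 26.8 to 33.6 on the lists of single replicates, whose scale is lower. The log2 ratio of eef-1A.1 to eef-1A.2, -0.48 in the pooled list, ran from -0.79 without replicate 4 to 0.022 without replicate 3, so its sign changed, and the cause was not tested. With a window from 500 bp upstream to 250 bp downstream, eif-2Bgamma had no optimal summit, so 8 members and 2 initiation genes had one, against 4.20% of all genes. There its strongest pooled summit was 22.9, and the log2 ratio of iff-2 to iff-1, 3.56 in the main window, was 4.27. No ratio of eef-1B.1 to eef-1B.2 could be had in the pooled list, where eef-1B.2 has no summit. No paired analysis was possible because there is 1 group. Depth is unknown, so a gene without a summit may have one that these libraries did not show.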
